A study of Homo sapiens with 3 samples.

Results

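The 8 genes examined here belong to the caspase machinery and were taken by symbol from the deposited read count table of H82R cells: CASP2, CASP6, CASP8, CASP9, APAF1, XIAP, BIRC2 and BIRC3. All 8 symbols were found among the 27574 genes of the table, and all 8 had at least 10 counts in every library, the rule used here to call a gene detected (14612 genes). H82 is a long-established line from a human small cell lung cancer. The 3 libraries, called replicates 1, 2 and 3, form 1 group labelled H82R. Each was treated with etoposide plus cisplatin according to its label, with no dose or duration and no word on what the R stands for. Both drugs damage DNA, etoposide through topoisomerase II and cisplatin by binding to the bases. No untreated or parental H82 sample is among the 3 libraries, and the values are therefore levels and their spread, with no measure of what the drugs changed. Separate cultures are not mentioned for the libraries, so the p-values reflect sample-to-sample spread that may be purely technical.

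Caspases are proteases that are made as inactive precursors and cut their targets after aspartate. Initiator caspases are switched on by being brought together on a platform: caspase-9 on the apoptosome, which APAF1 builds once cytochrome c leaves the mitochondria, caspase-8 on activated death receptors through FADD, and caspase-2 on the PIDDosome. They activate effector caspases, which carry out the cell's dismantling. The inhibitor of apoptosis proteins share BIR domains: XIAP binds and blocks caspases directly, whereas BIRC2 and BIRC3, which encode cIAP1 and cIAP2, are ubiquitin ligases that act mainly on TNF receptor and NF-kB signalling. Loss of caspase-8 expression has been described in small cell lung cancer.

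The members differed widely in the sequence that precedes their start sites. The stretches below are shown for BIRC2 and BIRC3, neighbours on the same strand of chromosome 11 with very different read counts, and for CASP8, the member whose level varied most between the libraries. They come from RefSeq (GRCh38.p14, plus strand, 5′ to 3′), end at the base before the gene's start in GENCODE release 29, and have every CpG dinucleotide in capitals.
BIRC3, chr11:102317234-102317449: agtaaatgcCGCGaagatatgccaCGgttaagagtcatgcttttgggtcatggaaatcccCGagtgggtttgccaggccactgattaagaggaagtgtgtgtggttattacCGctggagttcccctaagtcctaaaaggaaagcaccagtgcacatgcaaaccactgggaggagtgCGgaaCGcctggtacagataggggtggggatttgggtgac
BIRC2, chr11:102346964-102347210: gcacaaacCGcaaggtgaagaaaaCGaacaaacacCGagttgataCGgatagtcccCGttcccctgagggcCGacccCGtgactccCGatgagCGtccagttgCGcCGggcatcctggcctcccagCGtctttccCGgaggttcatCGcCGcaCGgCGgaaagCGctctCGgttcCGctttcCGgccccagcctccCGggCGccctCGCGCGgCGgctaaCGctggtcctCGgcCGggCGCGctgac
CASP8, chr2:201233213-201233442: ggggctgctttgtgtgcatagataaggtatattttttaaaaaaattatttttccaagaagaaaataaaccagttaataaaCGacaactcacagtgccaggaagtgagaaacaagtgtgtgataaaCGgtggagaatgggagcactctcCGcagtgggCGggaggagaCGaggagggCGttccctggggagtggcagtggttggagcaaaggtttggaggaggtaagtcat
The BIRC2 stretch held 32 CpG in 247 bases, the BIRC3 stretch 7 in 216 bases and the CASP8 stretch 6 in 230 bases. Over the full 250 bases before each of the 15 annotated RefSeq starts of the 8 genes, APAF1 (38 CpG at its single start), BIRC2 (33 and 38), CASP2 (29 at one start, 2 at the other), CASP9 (25 and 29) and CASP6 (26) had CpG-rich windows. CASP8 had 5 or 6 CpG at each of its 3 starts, BIRC3 had 11, and XIAP had 4, 12 and 23. The median over 34941 such windows of all genes was 11. A search for the kappa-B consensus of NF-kB on both strands found 2 matches in the BIRC3 window, GGAAATCCCC from 199 to 190 and GGAGTTCCCC from 135 to 126 bases before the start, and none in the windows of the other 7 genes; 5.20% of all windows held a match. These are letter matches only, and no binding or methylation was measured.

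Replicates 1, 2 and 3 held 25013265, 42610181 and 23868201 counts. Levels are given as CPM, counts scaled to the effective library size, and between genes as CPM per kb of exon (GENCODE 29). Where no read was counted, the level could still be as high as 0.121, 0.0702 and 0.125 CPM (3 counts), and this limit and all intervals cover counting error only. Among small cell lung cancer markers, 6 of 6 were detected and 5 lay above the median detected gene, against 45.9% of all detected genes. INSM1 (9.33 ± 0.827 CPM, SD, n = 3) was the exception. Fibroblast markers summed to 3.30 to 5.64 CPM and endothelial markers to 1.09 to 1.79 CPM. The leukocyte gene PTPRC had 6, 10 and 7 counts. In bulk RNA, fewer cells that express a gene and less RNA per cell cannot be told apart.

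Per kb of exon, XIAP had the highest level of the 8 genes and BIRC3 the lowest, CASP8 was next to last, and BIRC2, CASP6, CASP2, APAF1 and CASP9 lay between. Tested against the median detected gene of the same library (limma-trend, Benjamini-Hochberg adjustment over 14612 genes), XIAP, CASP2, APAF1 and BIRC2 lay above it, and CASP9, CASP6, CASP8 and BIRC3 below. Of all detected genes, 45.9% were called above, 46.1% below and 8.01% neither, so the 4 of 8 in each direction are close to the shares over all genes. The split rests on the scale: per kb of exon 2 members were above (background 45.3%) and 3 below (background 45.0%), with 3 not distinguished (background 9.69%), against the upper quartile 1 was above and 7 below, and with every gene that had a count as the reference 7 were above and 1 below. The last 2 settings move the reference itself, and no share over all genes is given for them. The median distance of the 8 genes from the median gene was -0.23 on the log2 CPM scale.

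**Figure D1:**
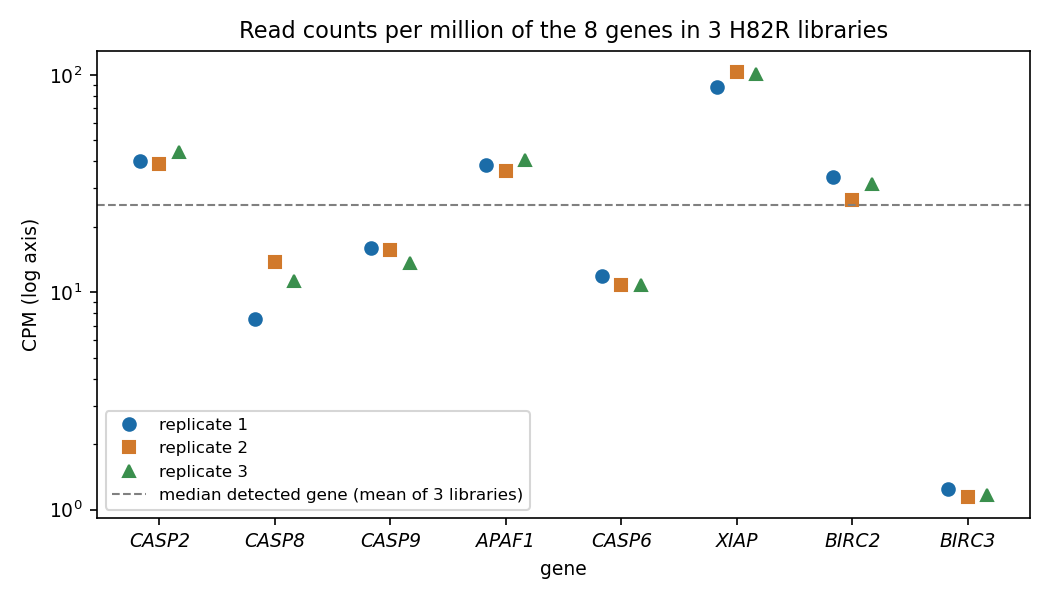
CPM of the 8 genes in each of the 3 libraries, on a log axis, with the level of the median detected gene (25.1 CPM, mean of the 3 libraries) as a dashed line. XIAP sits at 87.9 to 103 CPM and BIRC3 at 1.15 to 1.25 CPM, and CASP8 has the widest gap between libraries.

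Among the initiators, CASP2, whose product is activated on the PIDDosome, was the highest. Its counts were 996, 1654 and 1053 in replicates 1, 2 and 3, or 40.1, 38.7 and 43.9 CPM. The 3 libraries were close, the highest being 1.13 times the lowest. CASP2 lay 0.70 ± 0.08 (SE) above the median gene in log2 CPM (adjusted p = 4.7e-05), but its exons are long, and per kb it was not distinguished from the median gene (adjusted p = 0.233).

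CASP9, the initiator of the mitochondrial pathway, had 398, 665 and 327 counts. These are 16.0, 15.6 and 13.6 CPM, with replicate 3 the lowest. It lay below the median gene by -0.73 ± 0.11 (SE) in log2 CPM (adjusted p = 2.1e-04) and by -0.95 ± 0.11 per kb of exon (adjusted p = 5.3e-05). The gene lies on the minus strand of chromosome 1 from 15490832 to 15526534 (GRCh38), and 2.01% of its exon bases are overlapped by CELA2B on the other strand.

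CASP8, the initiator downstream of death receptors, was expressed at a low level that differed between the libraries. Its counts were 187, 589 and 271, or 7.53, 13.8 and 11.3 CPM. Replicate 2 stood 1.83 times as high as replicate 1, and replicate 3 lay between them. CASP8 was below the median gene by -1.24 ± 0.17 (SE) in log2 CPM (adjusted p = 1.7e-04) and by -1.92 ± 0.18 per kb (adjusted p = 1.4e-05). It is on the plus strand of chromosome 2 from 201233443 to 201287711.

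APAF1, the scaffold of the apoptosome, stood close to CASP2. It had 953, 1541 and 976 counts, or 38.4, 36.1 and 40.7 CPM, and the libraries differed by at most 1.13 times. APAF1 lay 0.61 ± 0.08 (SE) above the median gene in log2 CPM (adjusted p = 1.2e-04) and was not distinguished from it per kb (adjusted p = 0.0771). Exons of ANKS1B on the opposite strand overlap 9.48% of its exon bases, and reads of the 2 genes cannot be told apart there, as the sources used here do not give the strand setting of the counting.

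CASP6, an effector caspase, had 294, 460 and 259 counts, or 11.8, 10.8 and 10.8 CPM. The 3 values were almost level. CASP6 lay below the median gene by -1.17 ± 0.11 (SE) in log2 CPM (adjusted p = 1.3e-05). Its exons total only 1.94 kb, the shortest of the 8, and per kb it stood at the median gene, with a distance of 0.05 ± 0.09 (adjusted p = 0.576).

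XIAP, the direct caspase inhibitor, had 2184, 4402 and 2407 counts. In CPM these are 87.9, 103 and 100.4, with replicate 1 the lowest. XIAP lay above the median gene by 1.95 ± 0.08 (SE) in log2 CPM (adjusted p = 7.9e-08) and by 0.95 ± 0.08 per kb (adjusted p = 6.9e-06). Its percentile among detected genes ran from 81.5 to 85.1 by CPM and from 66.4 to 71.1 per kb. Of the 50-base words in its annotated transcripts, 4.56% also occur in transcripts of other genes, most often its processed pseudogene XIAPP1.

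BIRC2 and BIRC3 lie side by side on chromosome 11, BIRC3 from 102317450 to 102339403 and BIRC2 from 102347211 to 102378670. BIRC2 had 839, 1140 and 755 counts, or 33.8, 26.7 and 31.5 CPM, with replicate 2 the lowest. BIRC3 had 31, 49 and 28 counts, or 1.25, 1.15 and 1.17 CPM. The levels of the 2 genes were far apart in every library, and the percentile of BIRC3 among detected genes by CPM was 10.1, 8.44 and 9.47. BIRC3 lay below the median gene by -4.33 ± 0.18 (SE) in log2 CPM (adjusted p = 9.9e-08).

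BIRC2 was only just above the median gene, by 0.28 ± 0.10 (SE) in log2 CPM (adjusted p = 0.0212). That call was lost without replicate 1 (distance 0.29, adjusted p = 0.0677), against protein-coding genes alone (0.05, adjusted p = 0.604) and with at least 1 CPM in every library (-0.025, adjusted p = 0.806). Against the upper quartile BIRC2 lay below (-1.11, adjusted p = 4.4e-06). Over its 13 alternatives the adjusted p of BIRC2 ran from 6.95e-14 to 0.806. BIRC2 and BIRC3 encode related proteins, but only 11 of 4905 words of 50 bases in BIRC2 transcripts occur in BIRC3, so few reads of this length could be assigned to either.

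Per kb of exon, the order of the 8 genes was XIAP (10.8 ± 0.894 CPM per kb, SD, n = 3), BIRC2 (6.76 ± 0.800), CASP6 (5.73 ± 0.312), CASP2 (5.10 ± 0.338), APAF1 (4.85 ± 0.295), CASP9 (2.86 ± 0.239), CASP8 (1.501 ± 0.435) and BIRC3 (0.158 ± 0.00710). On this scale each gene was above the next in all 3 libraries. The ranges over libraries overlapped for BIRC2 and CASP6 and for CASP2 and APAF1, although the first gene of each was the higher in 3 of 3 libraries. The ranges of the other 5 neighbouring pairs did not overlap. The widest step was from CASP8 to BIRC3, with means that differ by 9.50 times. The order in the middle depends on the length used. In mean CPM, CASP2 (40.9) and APAF1 (38.4) were above BIRC2 (30.7), and CASP9 (15.1) was above CASP6 (11.1). XIAP stayed the highest and BIRC3 the lowest, with CASP8 next to last.

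**Figure D2:**
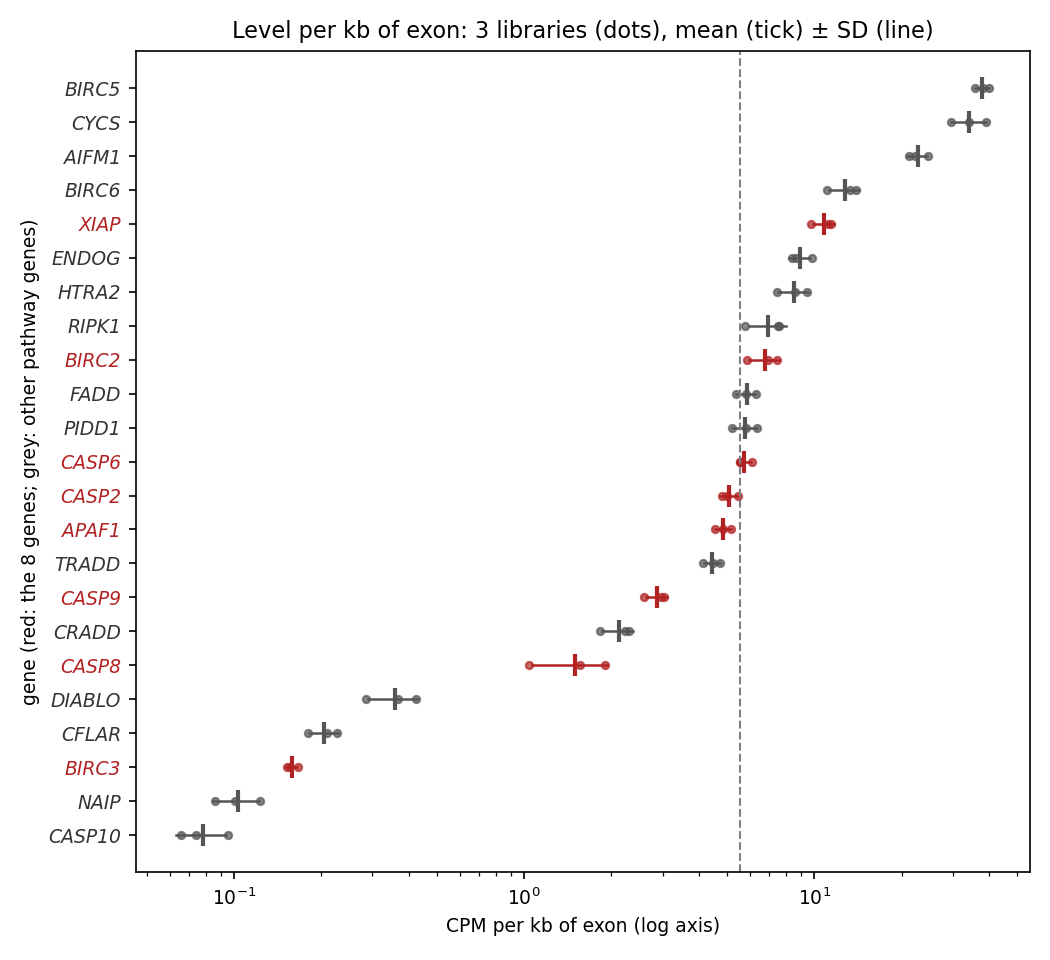
CPM per kb of exon on a log axis for the 8 genes (red) and a selection of other detected caspase pathway genes (grey), with dots for the 3 libraries, a tick for the mean and a line for ± 1 SD. The dashed line is the median detected gene (5.53 CPM per kb); XIAP and BIRC2 lie to its right in each library, and CASP9, CASP8 and BIRC3 to its left.

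Variation between libraries was examined by a chi-square homogeneity test, which asks whether counts differ by more than counting error. CASP8 (adjusted p = 9.9e-12), XIAP (2.1e-08), BIRC2 (1.2e-06), CASP2 (0.00896) and APAF1 (0.0177) passed, and CASP9 (0.0966), CASP6 (0.453) and BIRC3 (0.941) did not. The 5 of 8 are close to the share of all detected genes that passed, 68.7%. Without replicate 1, 2 or 3 the number passing was 4, 2 or 3: XIAP no longer passed without replicate 1, BIRC2, CASP2 and APAF1 without replicate 2, and CASP2 and APAF1 without replicate 3. CASP8 passed in each of these (adjusted p = 0.0145, 1.0e-04 and 2.1e-12), with 2.1e-12 to 0.0145 over all its alternatives. The 68.7% is for all 3 libraries, and no share over all genes is given without a library. Whether the lower numbers are particular to the 8 genes was therefore not tested.

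In size, the spread of CASP8 was the largest of the 8 genes. Its SD of log2 CPM was 0.44, at percentile 92.8 among the detected genes nearest to it in mean level. The SD of the other 7 ran from 0.06 (BIRC3) to 0.17 (BIRC2), and the median over detected genes was 0.17. BIRC3 was even for its low counts, at percentile 2.4 among the genes of its level. Of 6 leukocyte markers 3 were detected, and the list summed to 34.5, 40.6 and 30.8 CPM in replicates 1, 2 and 3, an order of libraries other than that of CASP8. CD3E (5.48, 9.92 and 7.47 CPM) had the order of CASP8, and CD68 (24.9, 24.6 and 18.3 CPM) did not. CD14, LYZ and the pan-leukocyte gene PTPRC were below 1 CPM in every library, and the part of these genes in the spread of CASP8 was not tested.

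**Figure D3:**
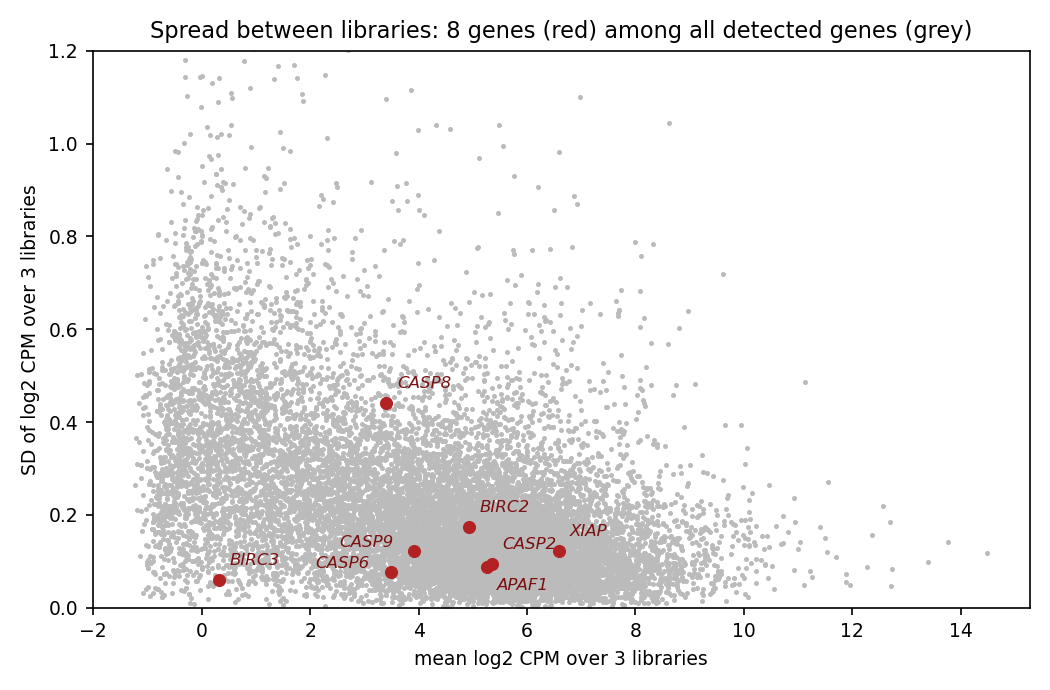
SD of log2 CPM over the 3 libraries against mean log2 CPM, with the 8 genes in red and all other detected genes in grey; 11 genes lie above the axis limit. CASP8, at an SD of 0.44, is the highest of the 8, and the other 7 lie between 0.06 and 0.17.

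Ratios within a library, per kb of exon, were computed for 12 gene pairs. With 3 libraries the two-sided exact sign-flip test cannot go below p = 0.25, which 11 pairs reached (adjusted p = 0.273) and BIRC6 to XIAP did not (p = 0.50), so the pairs are described by their values. BIRC2 exceeded BIRC3 by 44.9 times (31.4 to 66.5 as the 95% exact interval from the binomial), 38.6 times (28.99 to 52.5) and 44.7 times (30.7 to 67.8) in replicates 1, 2 and 3. The 3 intervals overlap, so a difference between libraries was not detectable at this depth. By coding length the mean ratio was 26.4.

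XIAP exceeded its target CASP9 by 3.20, 3.87 and 4.30 times in replicates 1, 2 and 3, and BIRC2 by 1.31, 1.94 and 1.60 times. In counts the mean ratios were 6.44 and 3.18, and by coding length 5.88 and 4.02, so the direction held and the size did not. APAF1 exceeded its partner CASP9 by 1.60, 1.54 and 1.99 times, but by coding length the 2 were nearly level, with a mean ratio of 0.912. CASP6 exceeded CASP9 by 2.003, 1.88 and 2.15 times per kb, whereas in counts CASP9 was the higher, with a mean CASP6 to CASP9 ratio of 0.740. The direction of these last 2 pairs therefore depends on the length used.

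Both ratios to CASP8 followed the low CASP8 value of replicate 1. CASP9 exceeded CASP8 by 2.93, 1.55 and 1.66 times, and CASP2 exceeded it by 4.81, 2.54 and 3.51 times. Dividing by the longest transcript in place of all exons brought CASP9 and CASP8 level (mean ratio 0.936), while CASP2 stayed above CASP8 (1.97).

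**Figure D4:**
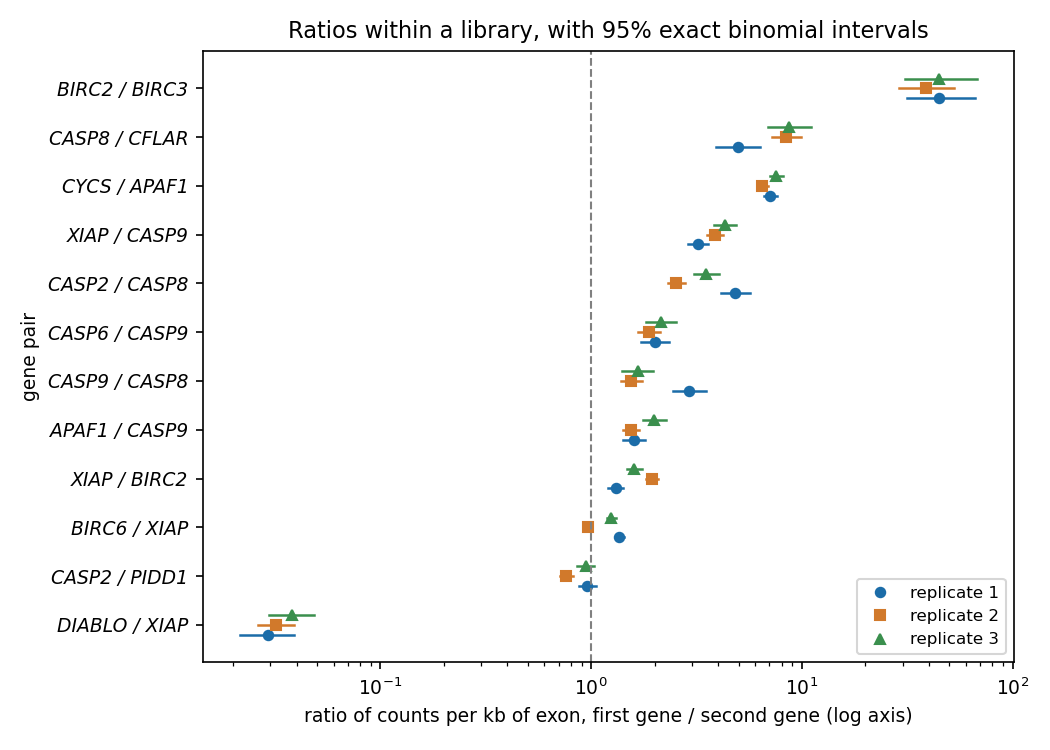
Ratio of the first to the second gene, in counts per kb of exon on a log axis, for 12 pairs in each library, with 95% exact binomial intervals as lines. BIRC2 to BIRC3 is the widest ratio at 38.6 to 44.9, DIABLO to XIAP the lowest at 0.0293 to 0.0382, and in the 3 pairs with CASP8 the interval of replicate 1 does not meet those of the other two.

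Other caspase genes were barely counted or not counted at all where they are given here. CASP10, the paralog of CASP8 next to it on chromosome 2, had 14, 31 and 12 counts and lay below the median gene by -5.26 in log2 CPM (limma-trend, adjusted p = 9.2e-08). The inflammatory caspase genes CASP1 and CASP5 and the skin caspase gene CASP14 had no count in any library, CASP12 had 0, 0 and 1, and CASP4 had 6, 7 and 6.

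Other BIR-domain genes were at both ends of the range. BIRC5, which encodes the mitotic protein survivin, had 137, 145 and 153 CPM, and BIRC6, which encodes a very large ubiquitin ligase that can act on caspases, had 237, 197 and 248 CPM. Per kb, BIRC6 was 1.36, 0.966 and 1.25 times XIAP, and by coding length it was lower, with a mean ratio of 0.237. NAIP had 29, 35 and 23 counts, which are uncertain because 43.9% of its 50-base words occur in other transcripts, and BIRC7 and BIRC8 had none. Of the 5 genes, 2 were above and 1 below the median gene, against 45.9% and 46.1% of all detected genes.

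The apoptosome's trigger was abundant beside its scaffold. CYCS, which encodes cytochrome c and has many processed pseudogenes, had 153, 132 and 174 CPM, and per kb it exceeded APAF1 by 7.06, 6.49 and 7.57 times. The size depends on the length used, with a mean ratio of 47.8 by coding length and 3.96 in counts. A list of 11 genes was set beside the apoptosome here, without assigning each of them a role in it. Of these, 5 lay above the median gene (HSPA4, HINT1, CYCS, AIFM1 and NLE1) and 4 below (AVEN, ENDOG, DIABLO and PHLDA1). Over all detected genes, 45.9% were above and 46.1% below. HTRA2 was not distinguished from the median gene. XAF1, which encodes an XIAP-binding factor, was not detected, with 7, 9 and 19 counts. Those calls are in CPM. Per kb of exon 7 were above (45.3% of all) and 2 below (45.0%). ENDOG and HTRA2 moved to above and AVEN was not distinguished. HSPA4 (67.8 ± 6.63 CPM per kb) and HINT1 (43.1 ± 0.669) were the highest and PHLDA1 (0.267 ± 0.0690) the lowest detected.

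DIABLO, which encodes the SMAC protein that displaces caspases from XIAP, was listed at 48, 106 and 69 counts. Per kb that was 0.0293, 0.0321 and 0.0382 times XIAP, and by longest transcript the mean ratio was 0.0685. The value is uncertain, since 55.8% of the coding bases of DIABLO belong also to other gene entries annotated on the same strand. The entries that overlap its exons there are AC048338.1 and another that is itself named DIABLO. Exons on the opposite strand overlap 36.9% of the exon bases of HTRA2, another mitochondrial protein that binds XIAP, and 39.3% of those of ENDOG.

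Another list was set beside the platforms of caspase-2 and caspase-8, again without assigning each gene a role in them. Its genes lay on either side of the median gene. Of 9, PIDD1 was above, CRADD, FADD, TRADD and CFLAR were below, RIPK1 and FASTK were not distinguished from it, and the necroptosis genes RIPK3 (0, 3 and 0 counts) and MLKL (1, 2 and 0) were not detected. Over all detected genes, 45.9% were above and 46.1% below in CPM. Per kb of exon 2 of the 9 were above (45.3% of all) and 3 below (45.0%). RIPK1 and FASTK moved to above, and PIDD1 and FADD were not distinguished. PIDD1, which encodes the PIDDosome core, had 30.6, 37.1 and 34.1 CPM, and CASP2 was 0.959, 0.763 and 0.944 times PIDD1 per kb but 2.39 times by coding length. RIPK1 (6.95 ± 1.01 CPM per kb), FASTK (6.88 ± 0.585) and FADD (5.85 ± 0.461) were the highest per kb. For FADD, 54.9% of the exon bases are overlapped by an annotated transcript on the other strand.

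CFLAR, which encodes the caspase-8 inhibitor c-FLIP, had 117, 218 and 97 counts, or 4.71, 5.10 and 4.05 CPM. CASP8 counts exceeded those of CFLAR in every library. Per kb the ratio was 4.97 (95% interval 3.92 to 6.32), 8.40 (7.18 to 9.86) and 8.69 (6.87 to 11.1) in replicates 1, 2 and 3. The interval of replicate 1 lies below those of the other two. Because the annotated exons of CFLAR total 22.5 kb, the size depends on the length used: the mean ratio was 2.62 by coding length, 2.29 in counts and 11.5 by longest transcript.

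Of 16 genes through which cIAP1, cIAP2 and XIAP act on NF-kB, 10 were above the median gene (45.9% of all detected genes) and 5 below (46.1%). The adaptors TAB2 (12.9 ± 0.235 CPM per kb) and TAB1 (12.2 ± 0.791) and the NF-kB subunit RELA (11.8 ± 0.343) were the highest. Those below were RELB, TNFAIP3, NFKBIA, MAP3K14, which encodes the kinase NIK, a protein that cIAP1 and cIAP2 keep low, and IKBKG. These calls are in CPM. Per kb of exon 9 genes were above (45.3% of all) and 5 below (45.0%). NFKBIA moved to above, IKBKB moved to below and NFKB1 was not distinguished. RELB, which encodes a subunit of the noncanonical pathway, was the lowest detected with 16, 72 and 24 counts. TRAF1 had 5, 25 and 15 counts and was not detected. TNFAIP3 had 57, 124 and 55 counts.

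The genes around BIRC2 and BIRC3 in 11q22 were not uniformly low. TMEM123, beside BIRC2, had 273, 197 and 274 CPM and was above the median gene, as were DCUN1D5 and DYNC2H1. YAP1, on the other side of BIRC3, had 27.8, 23.1 and 21.8 CPM and did not differ detectably from it. CFAP300 and CEP126 were below it, and ANGPTL5 (3, 2 and 0 counts) and MMP7 (no count) were not detected. These calls are in CPM. Per kb of exon YAP1 was below the median gene and DYNC2H1 was not distinguished from it. The level of BIRC3, at 0.158 CPM per kb, was thus below those of the genes on either side, YAP1 at 3.85 ± 0.503 and BIRC2 at 6.76 ± 0.800.

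Around CASP8 in 2q33, the paralogs and partners CASP10 and CFLAR had lower levels per kb of exon than CASP8 and than each neighbour named here. CASP10 stood at 0.0785 ± 0.0153 CPM per kb, CFLAR at 0.205 ± 0.0236 and CASP8 at 1.501 ± 0.435. FAM126B stood at 1.63 ± 0.368 and NDUFB3 at 18.8 ± 1.41. TRAK2 and TMEM237 were above the median gene in CPM, NDUFB3 was below it, and STRADB and FAM126B were not distinguished from it. Per kb of exon TRAK2 and TMEM237 stayed above, NDUFB3 and STRADB moved to above, and FAM126B moved to below. Over all detected genes, 45.9% were above and 46.1% below in CPM, and 45.3% and 45.0% per kb.

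**Figure D5:**
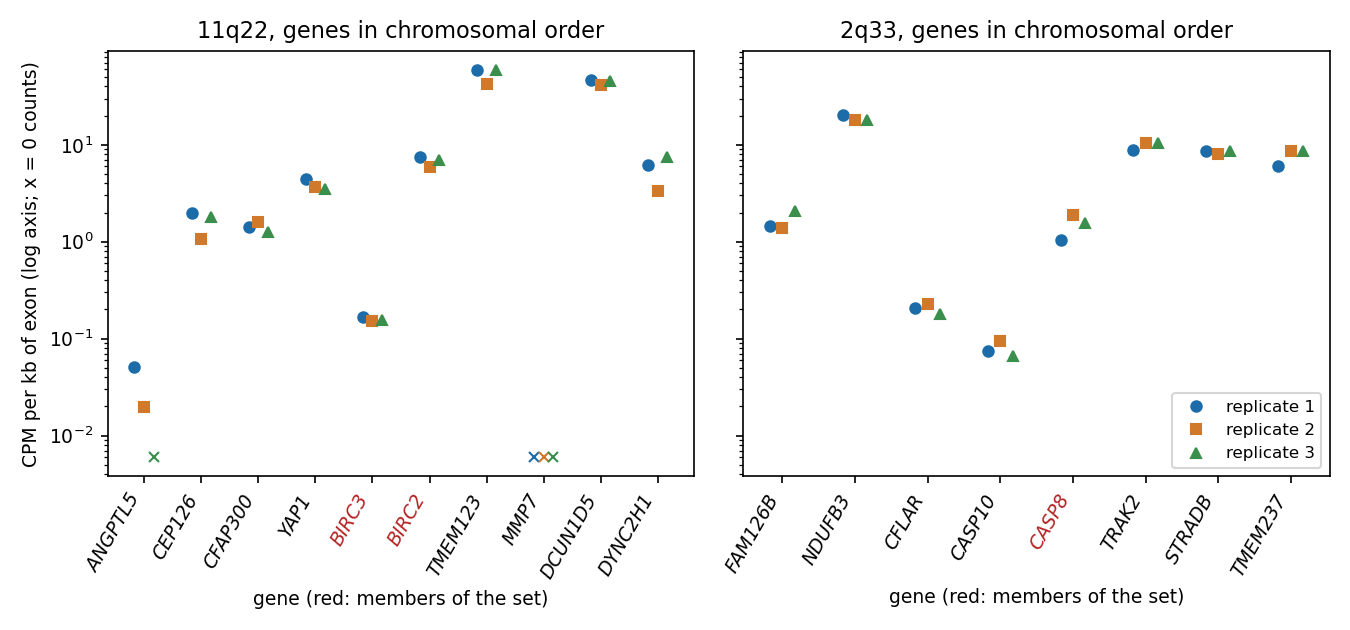
CPM per kb of exon, on a log axis, of selected genes in chromosomal order around BIRC2 and BIRC3 (left) and around CASP8 (right) in the 3 libraries; crosses at the bottom mark libraries with 0 counts. BIRC3 lies below both of its expressed neighbours, YAP1 and BIRC2, and CASP8 lies above CASP10 and CFLAR in every library.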

How the data were processed

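RNA sequencing of 3 libraries of H82R cells was deposited by the authors as raw read counts per gene symbol. Per the submitters' processing notes, STAR 2.6.1b and the hg38 build belong to the processing, in roles the notes do not state. The sources used here do not give the counting program, its annotation or its strand setting. Date-like names (13 of 27587) were left out; they held 0.0665%, 0.0707% and 0.0736% of the counts.

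CPM used TMM factors (edgeR 4.0.16), and log2 CPM a prior count of 2. With 1 group no contrast exists, so limma-trend (limma 3.58.1, R 4.3.3) tested each gene, two-sided, against the median detected gene of that library, adjusted over all detected genes at 0.05. Because the median is subtracted within each library, the scaling factor cancels in that test. Lengths, positions and overlaps came from GENCODE 29 on GRCh38, matched by symbol (19590 names directly, 497 by an older symbol, 7500 not), and promoters from RefSeq (all 8 genes matched). The limma-trend, quasi-likelihood and homogeneity tests were checked on simulated data.

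The members, gene lists and pairs were chosen with earlier results of these data known. Other genes named are the 3 highest and the lowest detected per kb of each list, the undetected, and pair members; any beyond these, where 5 or fewer were counted, were named after their values were seen. Some genes of the lists are not reported here. Alternatives were leaving out each library, DESeq2 1.42.0 size factors, plain totals, 2 other filters (1 CPM in every library, 1 count in any), a prior count of 0.5, limma-voom, edgeR's quasi-likelihood test with the median in the offset, the upper quartile, protein-coding genes, a threshold of 0.01, and other lengths.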

Additional observations from a re-analysis of the deposited data

How the results depend on the processing

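Limma-voom, a prior of 0.5 and edgeR's quasi-likelihood test left 4 members above and 4 below; plain totals and DESeq2 size factors cancel in that test and cannot move it. Keeping any gene with a count put 7 members above and 1 below, and 51 of 68 pathway genes above against 31 of 61. The upper quartile put 1 member above and 7 below, with 17 of 61 pathway genes above and 39 below (against 24). Both move the reference point itself, and the shares of all genes called under them are not given here. On CPM per kb 2 members were above. Distances in log2 that changed sign were, per kb, CASP2 (-0.12), APAF1 (-0.19) and CASP6 (0.053); against the upper quartile, CASP2 (-0.69), APAF1 (-0.78) and BIRC2 (-1.11); with any counted gene, CASP6 (1.12), CASP8 (1.05) and CASP9 (1.56); and with at least 1 CPM in every library, BIRC2 (-0.025). Without 1 replicate each, 3 to 4 members were above, 4 below, and 2 to 4 passed the homogeneity test, with no share over all genes given for these runs. Log2 ratios that changed sign were, by coding length, APAF1 to CASP9 (-0.13), CASP2 to PIDD1 (1.26) and BIRC6 to XIAP (-2.08); by longest transcript, CASP9 to CASP8 (-0.10); and with no length, CASP6 to CASP9 (-0.44) and CASP2 to PIDD1 (0.27). BIRC3, with 28 to 49 counts a library, is the member whose precision depth limits most. No paired analysis was possible because the labels form 1 group, so no samples of different groups share a number; the gene ratios are within a library.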

Other observations

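Of 11 genes for caspase substrates and executioner nucleases, all were detected in H82R cells. In CPM, 7 lay above the median gene and 4 below (limma-trend), against 45.9% and 46.1% of all detected genes. Per kb of exon 6 were above (45.3% of all) and 5 below (45.0%). The lamin gene LMNB1 (63.1 ± 2.21 CPM per kb, SD, n = 3), the kinase gene PAK2 (27.2 ± 0.421) and DFFA (25.1 ± 2.88), which encodes the inhibitor of the caspase-activated DNase, were the highest. The 4 below in CPM included DFFB, which encodes that DNase, at 16.1, 13.5 and 16.4 CPM, and BID at 15.1, 13.9 and 13.1 CPM. The others were the pore-forming gasdermin genes GSDME (3.62, 3.46 and 3.13 CPM) and GSDMD (0.926, 2.01 and 1.13 CPM). GSDMD, at 0.265 ± 0.113 CPM per kb, was the lowest of the list.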
